A study of Mus musculus with 4 samples.

Results

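These data cover 9 genes that control the step at which NF-kB is released from its inhibitor, on 4 arrays of mouse heart RNA. The genes encode the kinase IKK-beta and the regulatory subunit NEMO of the IkB kinase (IKK) complex, the ubiquitin editor A20 with its partner ABIN-1 and the deubiquitinase CYLD, the adaptors TRAF1 and TRAF2, and the F-box proteins that mark IkB for breakdown. They were chosen by function, as the genes of a list of 10 symbols for which a probe set carries that symbol alone, out of 19938 genes with such a probe set. No gene of the list had more than 1 probe set. Chuk, which encodes the kinase IKK-alpha, had none under its symbol in the annotation used and was not analysed here. Traf1 lay under the filter on dim probe sets, so 8 of the 9 genes were tested.

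NF-kB transcription factors are held in the cytoplasm by IkB proteins. Signals from tumour necrosis factor, interleukin-1 and Toll-like receptors pass through TRAF adaptors and ubiquitin chains to the IKK complex, which phosphorylates IkB. The F-box proteins beta-TrCP1 and beta-TrCP2 then recruit phosphorylated IkB to an SCF ubiquitin ligase, and the proteasome degrades it. A20 and CYLD restrain the pathway by removing or remodelling ubiquitin chains, and ABIN-1 restrains it as a partner that binds such chains and A20. Tnfaip3 and Nfkbia are themselves switched on by NF-kB.

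All 4 hearts had been under pressure load for 1 week from transverse aortic constriction (TAC), in which the aorta is narrowed by surgery. The wild type group held 1 array and the knockout group 3 arrays, from mice without MAFbx (atrogin-1, encoded by Fbxo32), itself an F-box protein of muscle. NF-kB is a known subject of the study, and the comparison asks whether transcripts of the IkB-degrading machinery differ without MAFbx. The labels give no strain, sex or age and no cells in which the deletion acts, do not say that each numbered heart is a separate animal, and list no heart without TAC. The p-values thus measure only the spread between these samples, which comes from the knockout arrays alone and may be technical.

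Fbxo32 read 7.54 (log2) in wild type against 5.65, 5.61 and 5.56 in the knockouts. Whether its probe set lies in the deleted part of the gene is not given in the labels. The medians of the 14914 genes tested were 6.84 to 6.87 by array. The cardiomyocyte marker Myh6 lay between 13.12 and 13.28 on the 4 arrays. Xist, expressed from the inactive X chromosome of females, read 9.18 and 9.52 on knockouts 1 and 2 against 4.13 on wild type 1 and 3.20 on knockout 3. The Y-linked Eif2s3y was opposite, at 3.31 and 3.64 against 8.57 and 8.49. Wild type 1 therefore shares this pattern only with knockout 3, and the difference of knockout 3 from wild type 1 is given beside several results.

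Promoter windows, 250 bases before to 50 bases after the start of the gene, were listed for 8 of the 10 symbols in RefSeq (GRCm38.p6), and 3 of these genes held the kB consensus, the DNA element that NF-kB binds, on either strand. All 3 encode restraints of the pathway. The windows that hold it are shown because NF-kB acts on its own restraints through this element, with Nfkbia, the gene of IkB-alpha, beside them as the best known case. Capitals mark matches to the 10-base consensus.
Tnfaip3, chr10:19015361-19015660, minus strand: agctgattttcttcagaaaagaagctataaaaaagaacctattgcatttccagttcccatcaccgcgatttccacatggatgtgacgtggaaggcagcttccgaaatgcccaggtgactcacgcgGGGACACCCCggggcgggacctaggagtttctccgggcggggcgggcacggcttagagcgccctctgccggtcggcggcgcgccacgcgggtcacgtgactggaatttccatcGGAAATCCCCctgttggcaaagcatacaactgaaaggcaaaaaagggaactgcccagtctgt
Tnip1, chr11:54962891-54963190, minus strand: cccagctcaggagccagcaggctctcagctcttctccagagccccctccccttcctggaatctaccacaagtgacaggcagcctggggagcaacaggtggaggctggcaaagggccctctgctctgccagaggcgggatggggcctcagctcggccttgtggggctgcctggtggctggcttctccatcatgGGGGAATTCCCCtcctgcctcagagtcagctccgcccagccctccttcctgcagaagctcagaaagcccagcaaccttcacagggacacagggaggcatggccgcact
Cyld, chr8:88696778-88697077, plus strand: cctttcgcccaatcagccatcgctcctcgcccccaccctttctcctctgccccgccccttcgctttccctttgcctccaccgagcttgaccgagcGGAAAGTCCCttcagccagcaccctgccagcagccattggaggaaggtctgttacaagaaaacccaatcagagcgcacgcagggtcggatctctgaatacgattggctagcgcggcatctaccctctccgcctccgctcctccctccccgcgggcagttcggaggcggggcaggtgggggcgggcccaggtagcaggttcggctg
Nfkbia, chr12:55492598-55492897, minus strand: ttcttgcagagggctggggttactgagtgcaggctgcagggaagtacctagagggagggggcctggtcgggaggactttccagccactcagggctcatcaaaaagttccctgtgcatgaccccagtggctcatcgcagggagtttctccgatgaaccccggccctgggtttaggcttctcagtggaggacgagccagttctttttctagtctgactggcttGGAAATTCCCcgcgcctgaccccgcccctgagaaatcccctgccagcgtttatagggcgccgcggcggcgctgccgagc
In Tnfaip3 the matches ran from -125 to -116 and from -12 to -3 relative to the start of the gene. In Tnip1 matches overlapped from -58 to -47, in Cyld 1 match ran from -155 to -146, and in Nfkbia 1 ran from -29 to -20. A match was present in 8.46% of all 32851 windows listed, and in 3 of the 12 windows listed for symbols of the list of 10. Tnfaip3 has another listed window without a match. None was found in the windows of Chuk, Ikbkg, Traf1, Traf2 and Fbxw11, which says only that these letters are not there. A match is a description of sequence and not a binding site.

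None of the 8 genes tested differed between genotypes past the limma threshold, an adjusted p under 0.05 over all genes. Adjusted p ran from 0.986 to 0.997, and 0 of the 8 passed an unadjusted limma p under 0.05 in either direction. Over all 14914 genes 0.00671% passed the adjusted threshold, and 4.05% were lower and 1.68% higher at the unadjusted one. The 8 genes had a median log2 fold change, knockout minus wild type throughout, of 0.02, against 0.00 over all genes tested. The median size of the change, whatever its direction, was 0.10 against 0.15. Btrc had the largest difference of the 8, a mean 1.13-fold higher in the knockout hearts. The 95% intervals of the 8 together reached from -0.57 to 0.72. Differences of up to 1.65-fold in a single gene are thus inside what these arrays allow, and the missing calls do not show that levels were equal.

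**Figure D1:**
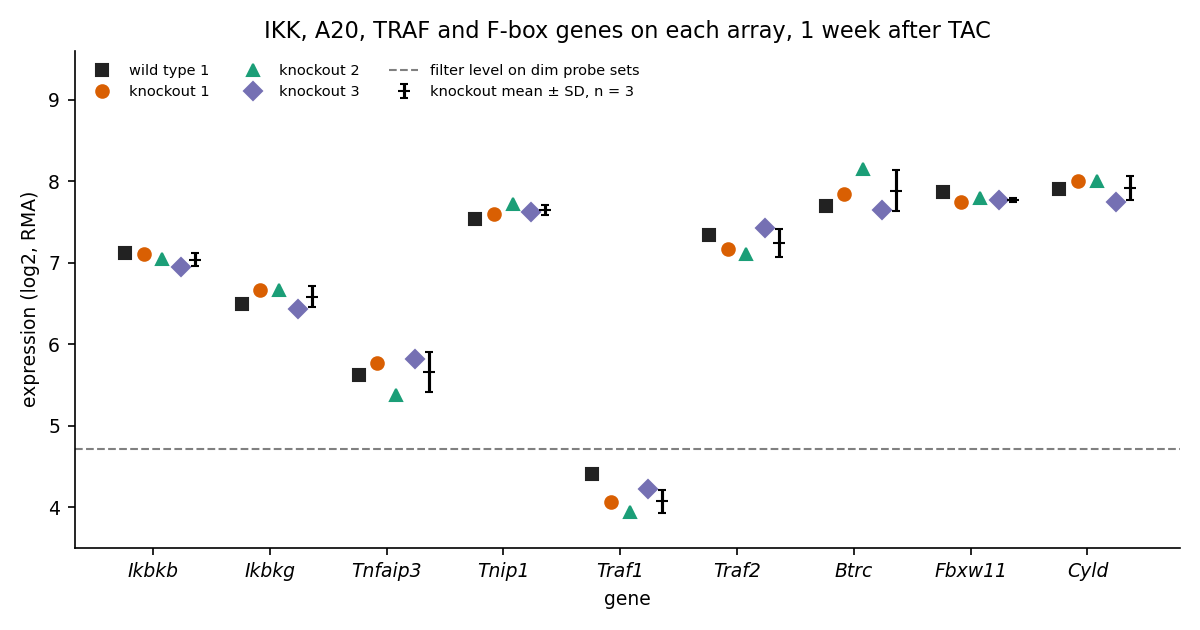
Expression (log2, RMA) of the 9 genes on each of the 4 arrays, with the mean ± SD of the 3 knockout arrays at the right of each gene and the filter level of 4.71 as a dashed line. Symbols of the wild type array lie among or close to those of the knockout arrays, and Traf1 lies below the filter level on all 4. Heights cannot be compared between genes, since each probe set responds differently.

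The kinase complex is taken first. Ikbkb encodes IKK-beta, the kinase that phosphorylates IkB-alpha in the classical pathway. It read 7.12 in wild type against 7.11, 7.04 and 6.95 in knockouts 1, 2 and 3. All 3 knockout values were lower than wild type, knockout 1 by 0.01 only. This gave a log2 fold change of -0.09, with SE 0.18 and a limma adjusted p = 0.995, and knockout 3 minus wild type 1 was -0.17. Ikbkg, an X-linked gene, encodes NEMO, the ubiquitin-binding regulatory subunit of the complex. It read 6.49 in wild type, 6.66 in knockouts 1 and 2, and 6.43 in knockout 3. The Xist-high arrays were thus the higher ones, and wild type 1 and knockout 3 were the lower. The log2 fold change over the 3 knockout arrays was 0.09 (SE 0.19, limma adjusted p = 0.995), and knockout 3 minus wild type 1 gave -0.06. Set against Ikbkg within each array, Ikbkb changed by -0.18, -0.25 and -0.11 relative to the wild type array, a mean of -0.18 ± 0.07 (SD, n = 3). An exact two-sided permutation test of this value gave p = 0.25, the smallest that 1 array against 3 can give.

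Among the ubiquitin editors and the A20 partner gene Tnip1, Tnfaip3 varied most between knockout hearts. It encodes A20, which edits ubiquitin chains on signalling proteins and so shuts the pathway down. Its wild type value was 5.62, and knockouts 1, 2 and 3 read 5.77, 5.37 and 5.82. Wild type lay inside the knockout range, with knockout 2 alone below it. The log2 fold change was 0.03 (SE 0.23, limma adjusted p = 0.997), and it was -0.03 without knockout 1 and -0.05 without knockout 3, so it has no settled direction. The difference of knockout 3 from wild type 1 was 0.20. Tnip1 encodes ABIN-1, which binds ubiquitin chains and A20. Here wild type read 7.53 and the knockouts 7.60, 7.72 and 7.62. All 3 knockout arrays were higher, by 0.07, 0.19 and 0.09, and this was the one gene of the 8 with every knockout value above wild type. With a log2 fold change of 0.12 (SE 0.17), it stayed far from the limma threshold (adjusted p = 0.992). Cyld encodes a deubiquitinase that strips chains from TRAF proteins and NEMO. Wild type read 7.90, knockouts 1 and 2 both 8.0 and knockout 3 7.74, the same division of the arrays as for Ikbkg. The log2 fold change was 0.01 (SE 0.19, limma adjusted p = 0.997). It became -0.03 without knockout 1 or without knockout 2, and knockout 3 minus wild type 1 gave -0.16. Within arrays, Tnfaip3 relative to Tnip1 changed by 0.08, -0.44 and 0.11 from the wild type array (mean -0.08 ± 0.31 SD, n = 3, exact two-sided permutation p = 1).

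The promoters of Tnfaip3, Tnip1 and Cyld shown above and that of Nfkbia share the kB consensus. Tnip1 and Nfkbia were above wild type on all 3 knockout arrays, as were 23.9% of all genes tested, while Tnfaip3 and Cyld lay on both sides of it. Tnip1 was highest in knockout 2, Nfkbia in knockout 1 and Tnfaip3 in knockout 3, and these orders were not tested.

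The TRAF adaptors link receptors to the kinases. Traf2 encodes an adaptor of the TNF receptors. Wild type read 7.34, knockouts 1 and 2 gave 7.17 and 7.11, and knockout 3 gave 7.43. The Xist-high arrays were the lower pair here. The log2 fold change was -0.10 (SE 0.20, limma adjusted p = 0.994), and knockout 3 minus wild type 1 was 0.09. Traf1 encodes a TRAF without a RING domain, itself induced by NF-kB and known mainly from lymphocytes. Its values of 4.40 in wild type and 4.06, 3.94 and 4.22 in the knockouts all lay below the filter level of 4.71, where RMA compresses differences. All 3 knockout arrays were below wild type, and without the filter the log2 fold change was -0.33 (SE 0.19, limma adjusted p = 0.959 over 19938 genes), with knockout 3 minus wild type 1 at -0.18. Of lymphocyte markers, 5 of 6 for T cells and 2 of 5 for B cells passed the same level, and Cd3d, Cd79a, Ms4a1 and Cd22 did not. The T cell markers tested had a median log2 fold change of 0.16 and the B cell markers -0.06.

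**Figure D2:**
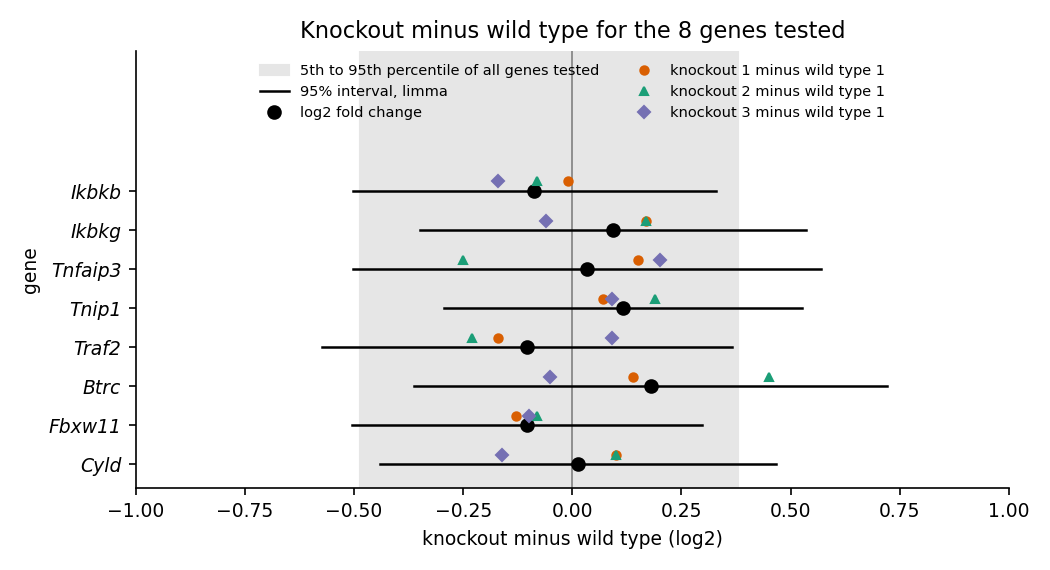
Log2 fold change, knockout minus wild type, of the 8 genes tested, with the 95% interval from limma as a line and the difference of each knockout array from wild type 1 as small symbols above it. Every interval includes 0, and all 8 fold changes lie inside the grey band that holds the 5th to the 95th percentile of all genes tested (-0.49 to 0.38).

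The F-box genes Btrc and Fbxw11 encode beta-TrCP1 and beta-TrCP2, close relatives that both recognise phosphorylated IkB. Btrc read 7.70 in wild type against 7.84, 8.15 and 7.65 in knockouts 1, 2 and 3. Knockout 2 stood highest and knockout 3 just below wild type, so the groups overlap. The log2 fold change was 0.18 (SE 0.23, limma adjusted p = 0.986), was 0.05 without knockout 2, and knockout 3 minus wild type 1 gave -0.05. Fbxw11 read 7.87 in wild type and 7.74, 7.79 and 7.77 in the knockouts. All 3 knockout values were lower by 0.08 to 0.13, and the log2 fold change was -0.10 (SE 0.17, limma adjusted p = 0.992). The knockout hearts lay close together for Fbxw11, with an SD of 0.03, and only 1.8% of the genes tested had a smaller one. For Btrc the SD was 0.25, larger than that of 79.4% of them. Within arrays, Btrc relative to Fbxw11 was above its wild type value by 0.27, 0.53 and 0.05, a mean of 0.28 ± 0.24 (SD, n = 3) and an exact two-sided permutation p = 0.5.

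Taking the 8 genes as a group, all 3 knockout arrays lay below the wild type array for Ikbkb and Fbxw11 and above it for Tnip1. That is 37.5% on one side, where 48.5% of all genes tested were on one side (24.6% below and 23.9% above). The SD between knockout hearts ran from 0.03 for Fbxw11 to 0.25 for Btrc, around the median of 0.16 over all genes. By array, the median difference of the 8 from wild type 1 was 0.09 in knockout 1, 0.01 in knockout 2 and -0.06 in knockout 3.

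The other genes of the pathway, in 5 lists by role, held 67 tested genes, and 0 of them passed the adjusted limma threshold (smallest adjusted p = 0.441). Of the 67, 6 were lower and 0 higher with an unadjusted limma p under 0.05, against 4.05% and 1.68% of all genes tested. Among the 6, Tnfrsf1a, Tnfrsf1b and Rel did not stay under 0.05 without knockout 1 or with Xist (high or low) as a covariate. With that covariate their log2 fold changes were -0.35, -0.57 and -0.47. Ube2v2 did not stay under 0.05 without knockout 1 or without knockout 3, with log2 fold changes of -0.495 and -0.49. All 3 knockout arrays lay below wild type for 24 genes (35.8%, against 24.6% of all genes) and above it for 4 (6.0%, against 23.9%). The lists were written with earlier results of these data known, and genes of a pathway can move together, so these shares are a description.

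**Figure D3:**
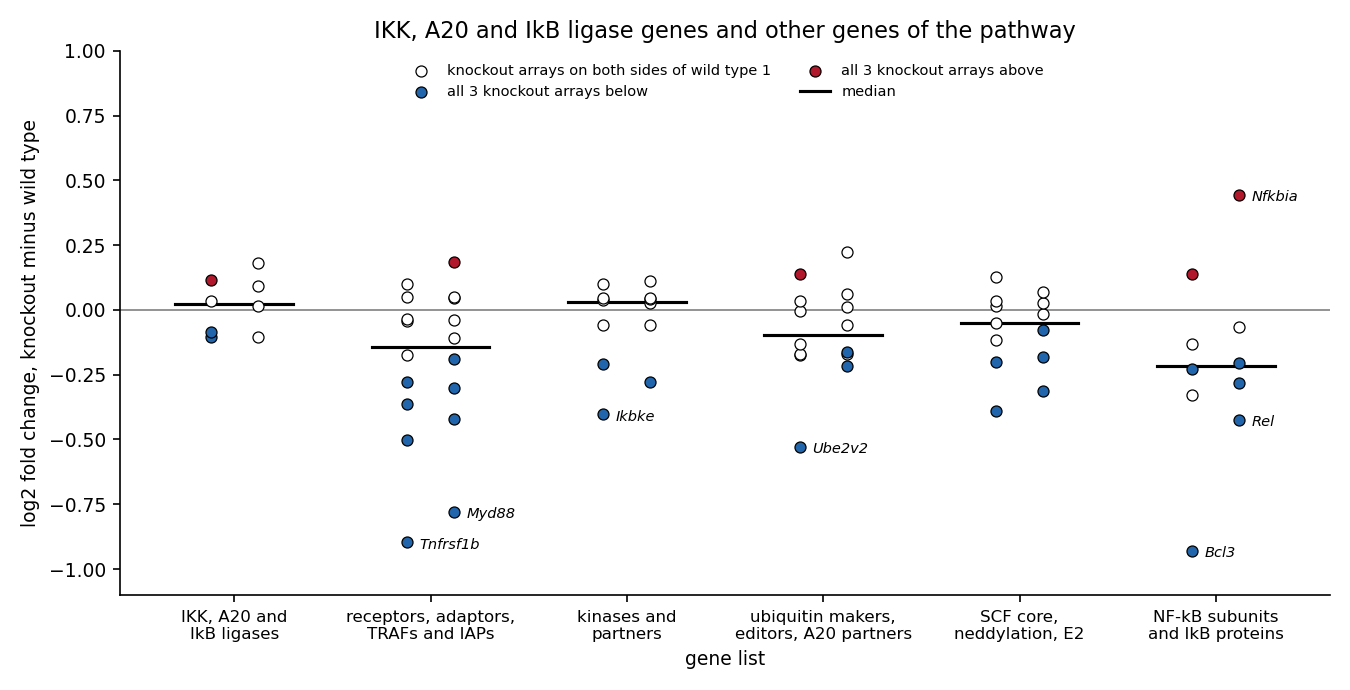
Log2 fold change, knockout minus wild type, of the 8 genes tested at the left and of the 67 other pathway genes in 5 lists, with the median of each list as a bar. Filled symbols are genes whose 3 knockout values are all lower or all higher than wild type 1, and the 8 genes lie between -0.10 and 0.18 while Tnfrsf1b, Myd88 and Bcl3 lie lowest.

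Upstream of the IKK complex, 18 genes of receptors, adaptors, TRAFs and IAPs had a median log2 fold change of -0.14, and for 8 of them the 3 knockout arrays all lay below wild type, against 1 above. The median was -0.05 without knockout 1 and -0.06 for knockout 3 against wild type 1 alone. Myd88, the adaptor of Toll-like and interleukin-1 receptors, had the smallest p of the list. It read 8.28 in wild type and 7.47, 7.43 and 7.60 in the knockouts, which do not overlap it (log2 fold change -0.78, SE 0.18, limma adjusted p = 0.441). Tnfrsf1b, the gene of TNF receptor 2, read 8.04 against 7.22, 6.74 and 7.47. Its log2 fold change was -0.90 (SE 0.28, limma adjusted p = 0.648), and knockout 3 minus wild type 1 was -0.57. Irak2, a kinase of the same branch as Myd88, was the one gene of the list above wild type on all knockout arrays, at 6.08 against 6.29, 6.21 and 6.30.

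Beside the IKK complex, 12 kinases and partners had a median of 0.03, with 3 below and 0 above. This median turned to -0.01 without knockout 2 or without knockout 3. Ikbke, an IKK-related kinase, read 5.83 against 5.55, 5.34 and 5.39, and Tank, a TRAF-binding partner of it, 7.14 against 6.61, 7.02 and 6.96 (limma adjusted p = 0.880 and 0.946). Of 14 genes that make or edit ubiquitin chains or partner A20, 3 lay below and 1 above, with a median of -0.10. Their median ran from -0.17 without knockout 2 to -0.02 without knockout 3, and was -0.01 with the probe set of lowest mean for each gene. Ube2v2, the partner of a ubiquitin-conjugating enzyme, read 7.69 against 7.09, 7.31 and 7.08 (log2 fold change -0.53, limma adjusted p = 0.737). This is the brightest of its probe sets. The one of lowest mean gave -0.01 and the mean over them -0.36, neither with an unadjusted limma p under 0.05. Its place among the 6 lower genes thus rests on the choice of probe set, and also on which knockout arrays are kept. Spata2, which bridges CYLD to the ubiquitin ligase LUBAC, read 6.33 against 6.20, 6.02 and 6.12. Sharpin, a LUBAC subunit, read 8.35 against 8.68, 8.39 and 8.39.

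The SCF core that Btrc and Fbxw11 share with MAFbx was measured in 13 genes with neddylation and E2 enzymes. Their median was -0.05, with 5 below and 0 above, and it ran from -0.11 to -0.01 with 1 knockout array left out and turned to 0.02 with quantile normalization renewed. Cand1, which exchanges F-box proteins on the cullin, read 8.69 in wild type and 8.23, 8.29 and 8.38 in the knockouts (log2 fold change -0.39, limma adjusted p = 0.880). The E2 gene Ube2d3 read 12.82 against 12.48, 12.51 and 12.53 (log2 fold change -0.31, limma adjusted p = 0.923). In both the knockout hearts were close together and below the wild type array. The cullin gene Cul1 read 8.93 against 8.95, 9.13 and 8.92, and Skp1, the adaptor that holds F-box proteins, 9.15 against 9.17, 9.34 and 9.02, so wild type lay inside the knockout range for both. Cul1 and Skp1 were named for their place in the ligase after their values were seen.

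Downstream, 10 genes of NF-kB subunits and IkB proteins had a median of -0.22, with 5 below and 2 above, and of -0.07 for knockout 3 against wild type 1 alone. Bcl3, a nuclear IkB protein, read 7.45 in wild type against 6.39, 6.33 and 6.84 (log2 fold change -0.93, SE 0.24, limma adjusted p = 0.530; knockout 3 minus wild type 1 -0.61), and the subunit gene Rel 8.03 against 7.59, 7.67 and 7.56 (limma adjusted p = 0.839). Nfkbia read 8.18 against 8.96, 8.37 and 8.54, higher on every knockout array and most in knockout 1 (log2 fold change 0.44, SE 0.25, limma adjusted p = 0.923; 0.28 without knockout 1). Nfkbid, another nuclear IkB gene, read 5.11 against 5.19, 5.29 and 5.26.

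Macrophage, neutrophil and dendritic cell markers read lower as lists beside the low readings of Tnfrsf1b, Myd88 and Bcl3. T cell markers did not (median log2 fold change 0.16, 3 of the 5 tested above wild type on all knockout arrays, 1 below). The 2 B cell markers tested had a median of -0.06, with 0 below wild type on all knockout arrays. For 9 of the 10 macrophage markers all 3 knockout arrays lay below wild type, 7 of them at an unadjusted limma p under 0.05 and 0 past the adjusted threshold, with a median log2 fold change of -0.98. Their summed signal on the linear scale was 4671 in wild type and 1879 to 3436 in the knockouts, and 0 of the 10 lay below the filter level. The 3 neutrophil markers tested had a median of -0.52, with 2 below and 4 more under the filter level, and the 6 dendritic cell markers -0.21, with 5 below. In each of these lists 2 had an unadjusted limma p under 0.05. The part of these cells in the values of the pathway and of the 8 genes was not tested. In bulk tissue fewer cells of a type and less RNA per cell cannot be told apart. The 8 cardiomyocyte markers had a median of 0.07, and 7 endothelial markers 0.29. By array, the 8 IKK, A20 and ligase genes ran from -0.17 for Traf2 to 0.17 for Ikbkg on knockout 1. They ran from -0.25 for Tnfaip3 to 0.45 for Btrc on knockout 2, and from -0.17 for Ikbkb to 0.20 for Tnfaip3 on knockout 3. The macrophage medians of knockouts 1, 2 and 3 were -1.20, -1.025 and -0.78, and their relation to the 8 genes was not tested.

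**Figure D4:**
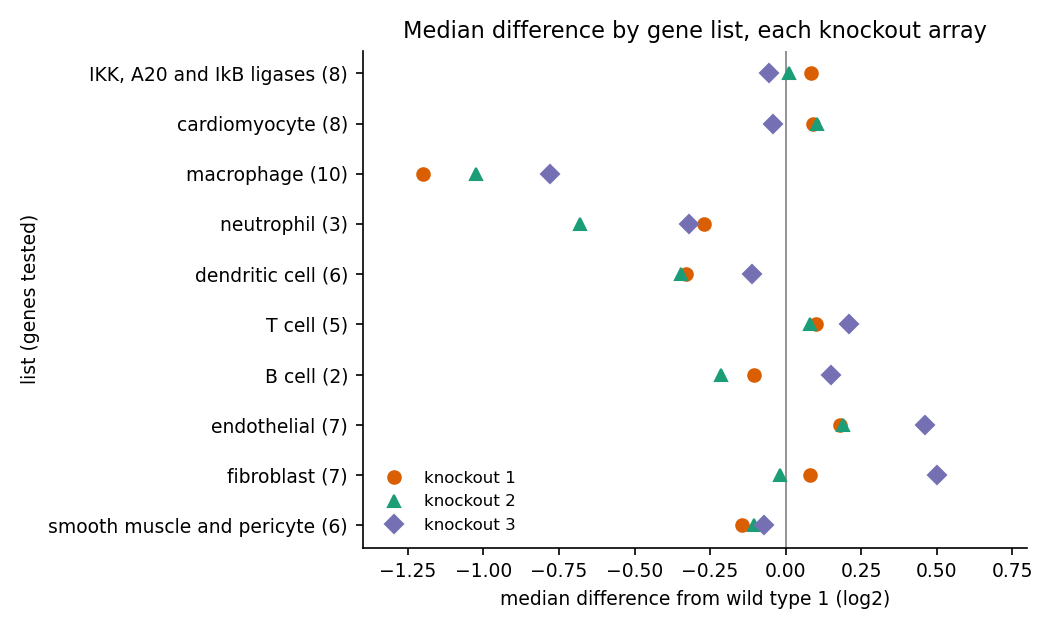
Median difference from wild type 1 (log2) on each knockout array, for the 8 genes tested and for 9 lists of cell type markers, with the number of genes tested in brackets. The medians of the 8 genes lie between -0.06 and 0.09, those of cardiomyocyte markers between -0.04 and 0.11, and those of macrophage markers between -1.20 and -0.78.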

How the data were processed

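The deposited values are log2 expression, 1 per probe set and array. Per the submitters' processing notes, the authors used Affymetrix Expression Console with RMA, which corrects background, equalises the distributions of the arrays and summarises each probe set. For versions and genome build, nothing is given in the sources used here. This processing hides any shift common to most genes and shrinks differences at low levels.

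Of 35556 probe sets, 21789 had 1 gene symbol in the platform annotation, 1621 had several and 12146 were unlisted. The 21698 that matched the GRCm38.p6 table by gene identifier needed 0 updates of symbol. Where a gene had several probe sets, the one of highest 4-array mean was used, and means under the 25th percentile (4.71) were left out.

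Genotypes were compared over all 14914 genes left, in all 4 arrays, with limma 3.58.1 in R 4.3.3 (lmFit, eBayes, two-sided, Benjamini-Hochberg adjustment). The fit gives the lone wild type array the spread of the knockout arrays, with 2 residual and 5.04 prior degrees of freedom. The number of arrays limits the precision. Pairs of genes were compared within arrays by exact permutation.

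The members, lists and tests were chosen with earlier results of these data known. Genes named are all members, Fbxo32, Xist, Eif2s3y, Nfkbia, any called gene of a pathway list and, from each pathway list, up to 2 with the largest fall and 2 with the largest rise among genes whose knockout values are all lower or all higher than wild type; exceptions are said in the text. Myh6 and the lymphocyte markers come from the marker lists. Alternatives were other filters, scalings, probe set rules, variance models and thresholds, a covariate for Xist (high or low), and leaving out each knockout array.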

Additional observations from a re-analysis of the deposited data

How the results depend on the processing

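Under all 14 alternatives 0 of the IKK, A20 and ligase genes and 0 of the other pathway genes passed the adjusted limma threshold (lowest adjusted p of a member 0.652). Of 111 values of the members under these alternatives, 103 kept their direction and 8 turned. Most of the 103 could not turn. Other filters, probe set rules, variance models and thresholds leave the log2 fold change of a member as it was. Only the scalings, the Xist covariate and leaving out an array could change it, and all 8 turns came with the latter 2. Tnfaip3 has no value with probe sets under the 50th percentile left out, since its mean lay under that level. With Xist as a covariate, which sets wild type 1 against knockout 3 alone, Ikbkg turned to -0.06, Btrc to -0.05, Cyld to -0.16 and Traf2 to 0.09, the median of the members moved from 0.02 to -0.06 (-0.055), that of the kinases from 0.03 to -0.11 and that of the NF-kB and IkB genes from -0.22 to -0.07 (-0.065). Leaving out 1 knockout array, Tnfaip3 ran from -0.05 to 0.18 and Cyld from -0.03 to 0.10. Over all genes, 1 was called. The count was 0 without the filter, 2 with probe sets under the 50th percentile left out, 0 with quantile normalization renewed, 7 with the probe set of lowest mean, 7 with a trend, 9 with robust eBayes, 11 at an adjusted p under 0.1, 0 with Xist as a covariate and 0 without any of the 3 knockout arrays. The causes of these shifts were not tested. No paired analysis was possible because the labels record no pairing of arrays between the groups.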

Other observations

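Gene families around the pathway, taken by symbol pattern after the data were seen, gave no call. Family members with other symbols, such as Cd40 and Ltbr for the TNF receptors and Tnfaip3 for the OTU deubiquitinases, were not counted. Of 20 TNF receptor superfamily genes with a Tnfrsf symbol 0 passed the adjusted limma threshold, with 3 lower at an unadjusted limma p under 0.05 (4.05% of all genes tested were). All knockout arrays were below wild type for 7 of them and above it for 0, against 24.6% and 23.9% of all genes tested, and the median log2 fold change was 0.00. The 3 were Tnfrsf1a, at 9.31 in wild type against 8.68, 8.78 and 8.96, Tnfrsf1b, and Tnfrsf23, at 6.79 against 6.03, 6.49 and 6.13. Tnfrsf12a, the TWEAK receptor gene, read 9.12 against 8.62, 8.84 and 8.39. The 13 OTU-family deubiquitinase genes counted had a median log2 fold change of 0.02, with Yod1 highest at 0.25 and Otud6b lowest at -0.19.

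Among 8 genes named for induction by TNF (TNFAIP and related), the median log2 fold change was -0.19. For Tnfaip8, knockout 3 stood alone at 7.14, whereas wild type read 8.26 and the other knockouts 8.66 and 8.62. Tnfaip6, which encodes a matrix-binding protein, gave 5.09 and 5.45 in knockouts 1 and 2, below wild type (6.06) and knockout 3 (6.17). Neither passed the limma threshold (adjusted p = 0.996 and 0.945).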
